A study of Mus musculus with 4 samples.

Results

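Iron uptake and mitochondrial iron transport were described through 10 genes given by symbol: Tfrc, Tfr2, Trf, Steap3, Slc11a2, Slc25a37, Slc25a38, Glrx5, Abcb10 and Abcb6. Of these, 9 had a row among the 23234 genes of the table used here, and all 9 reached at least 1 FPKM (fragment density over the transcript's length, made relative to the library's size) in at least 1 library, as did 9611 genes in all. Trf reached it only in the knockdown library. The level of Tfr2 was not analysed here, and that gene enters only the sequence searches below. The cells were mouse extensively self-renewing erythroblasts (ESREs), which are red cell precursors grown out of the early fetus that keep dividing in culture. RNA sequencing covered 3 libraries with 1 sample per group. The first held proliferating cells with a short hairpin RNA against Setd8, an enzyme that adds a single methyl group to a lysine of histone H4. The second held cells with a non-targeting hairpin that had spent 6 h in maturation medium. The third, against which both were set, held proliferating cells with the non-targeting hairpin. All cells carried a hairpin, and the labels give neither the strain nor the number of cultures behind a sample. Matured knockdown cells were not analysed here.

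A developing red cell takes up most of its iron as transferrin. The protein encoded by Trf carries iron in plasma and binds the transferrin receptor, encoded by Tfrc, at the cell surface. The complex is taken into endosomes, where the ferrireductase Steap3 converts the released iron and the transporter Slc11a2 (DMT1) moves it into the cytosol. The carrier Slc25a37 (mitoferrin 1) brings iron into mitochondria, where it enters haem and iron-sulphur clusters.

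Setd8 itself was at 9.28 FPKM in knockdown cells and 25.9 FPKM in the maturing control, against 25.1 FPKM in the proliferating control, so the knockdown library held 37.0% of that last level. Relative to the proliferating control, sequencing depth was 1.44 times as great in the knockdown and 1.55 times in the maturing control, as read from the smallest steps between low FPKM values. The absolute depth is unknown. The ribosomal RNA precursor Rn45s, a sign of how RNA was prepared, was at 190.5 FPKM in knockdown cells and 133 FPKM in the maturing control, against 94.98 FPKM in the proliferating control, and its part in the values below was not tested. With 1 library per group no difference has a replicate check, and the calls below (a q-value of at most 0.05) are those of the authors' deposited table. The standard errors (SE) and 95% intervals are those implied by the test statistics of that table, and they hold only as far as the authors' model does.

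Tfrc messenger RNA carries iron-responsive elements, short hairpins in its 3′ untranslated region to which iron regulatory proteins bind when iron is scarce, which protects the message from decay. They are shown because Tfrc is the entry point of the pathway and its message level is what was measured. A search of GENCODE transcripts (GRCm38) for a C, any 5 bases, the loop CAGTGN and 5 bases that pair with the first 5 (G with T allowed), on the transcript strand only, found 4 elements in exon 19 of Tfrc on chromosome 16, plus strand. The capitals mark the unpaired C and the loop.
Tfrc element 1, chr16:32631219-32631247: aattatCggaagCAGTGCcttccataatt
Tfrc element 2, chr16:32631598-32631626: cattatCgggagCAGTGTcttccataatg
Tfrc element 3, chr16:32631663-32631691: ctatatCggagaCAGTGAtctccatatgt
Tfrc element 4, chr16:32631710-32631738: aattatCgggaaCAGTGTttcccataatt
The same letters were found in a transcript of 294 of 21877 protein-coding genes (1.34%), and no gene had more than the 4 of Tfrc. Tfrc was the 1 gene among the 10 with a match. A match is a description of these letters. Weaker hairpins are missed by a rule this strict, so a gene without a match may still carry an element.

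In the knockdown library, the endosomal reductase Steap3 fell and Trf rose by the authors' deposited table, and no gene of the mitochondrial step was called. Of the 9 genes, 7 had a lower value and 2 a higher one. One of the 7, Slc11a2, was lower by only 0.02 on the log2 scale of FPKM + 1, and was higher by 0.02 to 0.07 under each of 4 other scalings. Over the 9 genes the median log2 ratio of FPKM + 1 was -0.51, and over all 9611 measured genes it was -0.05, with a lower value in 55.6% of them. Without Trf the median over 8 genes was -0.54. The count of 1 called lower and 1 called higher among 9 stands against a background of 3.24% called lower and 5.81% called higher among 11665 tested genes (9.05% in all). That background includes genes below 1 FPKM in every library. Of the 9498 tested genes that reached 1 FPKM in at least 1 library, 204 were called lower and 369 higher. An unadjusted p under 0.05 was held by 3 of the 9 on the lower side (Steap3, Tfrc and Abcb10) and by Trf on the higher side, where 5.38% and 9.34% of tested genes had one (14.7% in all). By size alone, Steap3 was over 2-fold lower and Trf over 2-fold higher on the FPKM + 1 scale, as were 2.6% and 4.38% of measured genes. Trf reached 1 FPKM only in the knockdown library, so its place in these counts is no support by itself.

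After 6 h in maturation medium all 9 genes had a higher value than in the proliferating control, and Slc25a37, the mitochondrial importer, was the 1 gene that rose by the authors' call. The median log2 ratio of FPKM + 1 was 0.48 over the 9 and 0.01 over all measured genes, of which 52.6% had a higher value. It was 0.54 over the 8 genes other than Trf. The background for this comparison was 0.584% of 11298 tested genes called higher and 1.17% called lower (1.75% in all). Of the 9414 tested genes that reached 1 FPKM in at least 1 library, 35 were called higher and 90 lower. An unadjusted p under 0.05 on the higher side was held by 4 of the 9 (Slc25a37, Abcb10, Steap3 and Trf) and by 2.17% of tested genes, with 2.73% on the lower side (4.9% in all). Trf was below 1 FPKM in both libraries, at 0.128 FPKM in the maturing control and 0.0364 FPKM in the proliferating control. The place of Trf in these counts is therefore no support by itself. By size alone, Slc25a37 and Abcb10 were over 2-fold higher on the FPKM + 1 scale, as were 0.52% of measured genes, and none of the 9 was over 2-fold lower, as 1.14% were. Both comparisons share the proliferating control library, so a low or high value in that library moves a gene in both. Effects of the medium and of maturation cannot be told apart here.

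**Figure D1:**
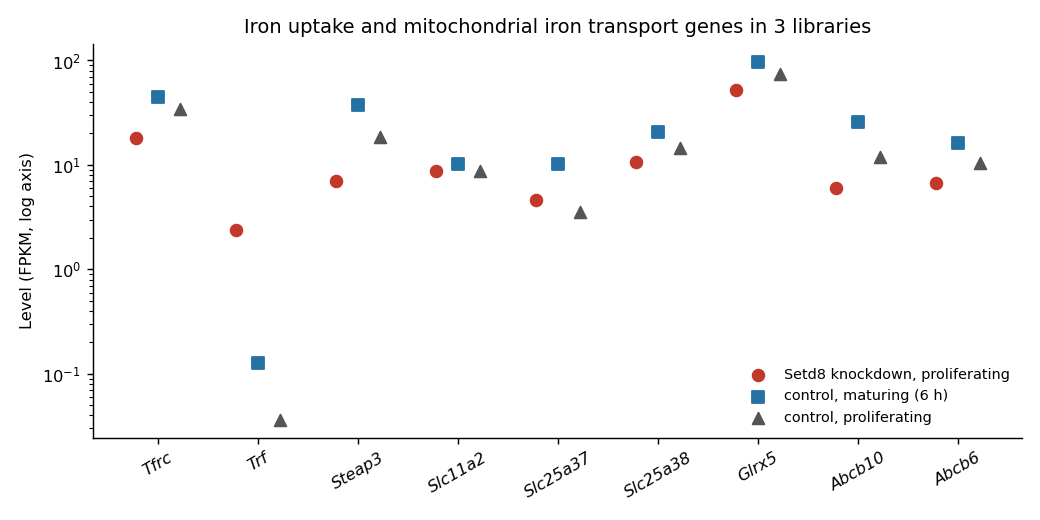
Level of each of the 9 genes in FPKM (log axis) in the Setd8 knockdown (red circles), the maturing control (blue squares) and the proliferating control (grey triangles), 1 library each. The maturing control held the highest level of 8 of the genes, and Trf was highest in the knockdown at 2.39 FPKM.

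The genes of iron uptake came first. Tfrc (chromosome 16, 32608981 to 32632880, mm9) was at 18.0 FPKM in knockdown cells and 44.3 FPKM in the maturing control, against 34.0 FPKM in the proliferating control. The knockdown library was thus the lowest of the 3 and the maturing control the highest. For the knockdown, the log2 ratio in the authors' deposited table was -0.91 (SE 0.39), with a q of 0.188. That q misses the threshold although the interval of -1.68 to -0.15 leaves out 0. Only 3.25% of measured genes had a lower ratio of FPKM + 1 than Tfrc. For maturation, the authors' deposited table held a log2 ratio of 0.38 (SE 0.38) and a q of 0.999981. Tfrc was the second most abundant of the 9 genes in each library, after Glrx5.

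Trf, the gene of the ligand that Tfrc binds, lies on chromosome 9 from 103111205 to 103132616 (mm9) and is made mainly by liver. It was at 2.39 FPKM in knockdown cells and 0.128 FPKM in the maturing control, against 0.0364 FPKM in the proliferating control. The knockdown level was 65.7 times that of the proliferating control, a ratio that rests on very few fragments in the control. The authors' deposited table called it higher in the knockdown, with a log2 ratio of 6.04 (SE 0.66) and a q written as 0. For maturation the ratio there was 1.81 (SE 0.67) and the q 0.0846, not a call. Even in the knockdown, only 23.8% of measured genes had a lower level than Trf, and it was the least abundant of the 9 in all 3 libraries. Of the hepatocyte markers, Alb and Ttr were listed at 0 in every library, none of the 7 markers on that list reached 1 FPKM, and their summed level was 0.0111 FPKM in the knockdown, 0.0518 FPKM in the maturing control and 0.386 FPKM in the proliferating control. Nearly all of that last sum was Ahsg, at 0 FPKM in knockdown cells and 0.0445 FPKM in the maturing control, against 0.356 FPKM in the proliferating control, which the authors' deposited table called lower in both comparisons. Mast cell and basophil markers were mostly higher in the same library as Trf. Gzmb went the other way, at 0.00592 FPKM in knockdown cells against 1.43 FPKM in the proliferating control, and was called lower. The 10 markers summed to 451 FPKM in knockdown cells and 35.0 FPKM in the maturing control, against 55.8 FPKM in the proliferating control. Most of the knockdown sum was Hdc, at 277 FPKM, and Ms4a2, at 99.3 FPKM. The part of these markers in the value of Trf was not tested.

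Steap3 (chromosome 1, 122122992 to 122167659, mm9), the endosomal ferrireductase, was at 7.03 FPKM in knockdown cells and 37.7 FPKM in the maturing control, against 18.4 FPKM in the proliferating control. Its knockdown level was 38.2%, and its maturing level 205%, of that in the proliferating control. It fell in the knockdown by the authors' deposited table, at a log2 ratio of -1.39 (SE 0.45) and a q of 0.0320. Among the 9 genes it had the lowest ratio of FPKM + 1 in this comparison, and 1.74% of measured genes had a lower one. For maturation the same table held a log2 ratio of 1.04 (SE 0.41) and a q of 0.131, not a call, while 99.5% of measured genes had a lower ratio of FPKM + 1. The related reductase genes Steap1, Steap2 and Steap4, named here after their values were seen, were at or below 0.00783 FPKM in every library.

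The sequence before the most upstream RefSeq start of Steap3 is shown because Steap3 was called lower in the knockdown and the window holds a GATA motif, the sequence bound by the red cell factor Gata1 and by Gata2. The motifs searched on both strands were AGATAA and TGATAA for GATA factors, CCACACCC for Klf1 and CAGNTG for E-box factors. These 250 bases lie at chr1:120271081-120271330 (GRCm38.p6), minus strand, 5′ to 3′, and end at the base before the start. Capitals mark CAGCTG, an E-box match, and TTATCT, which is AGATAA on the other strand and begins 45 bases before the start.
Steap3 upstream: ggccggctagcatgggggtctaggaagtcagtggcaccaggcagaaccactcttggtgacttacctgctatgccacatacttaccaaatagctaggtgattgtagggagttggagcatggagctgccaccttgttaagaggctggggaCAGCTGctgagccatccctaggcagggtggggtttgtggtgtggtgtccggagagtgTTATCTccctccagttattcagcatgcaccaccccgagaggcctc
Of the 10 genes, 7 matched a window in the RefSeq promoter table, and Trf, Slc11a2 and Slc25a37 did not. A GATA motif of either form was found for 2 of the 7, Steap3 and Tfr2, and for 21% of all 27025 genes in that table. Of the 13 windows of the 7 genes, Steap3 had 4 and Tfr2 3, and only 1 window of each held the motif. For Steap3 it was the window shown. Over all genes, 18.6% of 32851 windows held it, and a gene with more windows has more places for a match. The windows scanned run from 250 bases before to 50 after a start. The E-box motif was found for 4 of the 7 and 54.6% of all genes, and the Klf1 motif for 1 of the 7 and 4.09% of all genes. These matches are not sites of binding, and the windows of Abcb10 and Glrx5 held none of these letters.

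Slc11a2, the transporter that passes iron out of the endosome, lies on chromosome 15 from 100218330 to 100253486 (mm9). It was at 8.68 FPKM in knockdown cells and 10.1 FPKM in the maturing control, against 8.78 FPKM in the proliferating control. This was the narrowest spread of any of the 9 genes over the 3 libraries. The knockdown log2 ratio in the authors' deposited table was -0.02 (SE 0.52), with an interval of -1.03 to 0.996, so a difference of nearly 2-fold either way would lie within the error. Its maturation log2 ratio in the authors' deposited table was 0.20 (SE 0.53). Both q-values there were 0.999981.

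**Figure D2:**
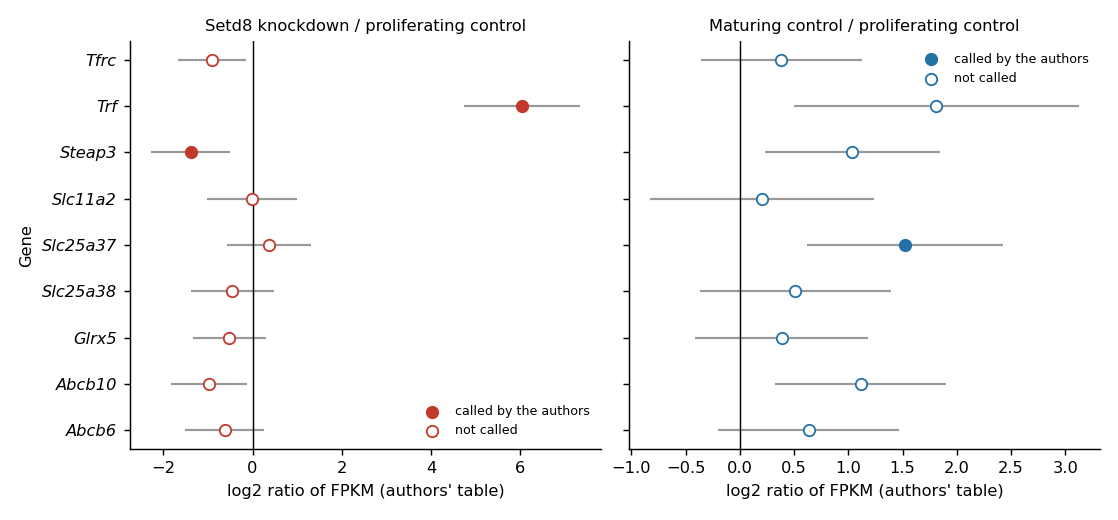
Log2 ratios of FPKM from the authors' table for the Setd8 knockdown (left) and the maturing control (right), each over the proliferating control, with lines for the 95% interval implied by the authors' model and filled points for their calls. The horizontal scales of the panels differ. Trf and Steap3 are called in the left panel and Slc25a37 in the right.

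The mitochondrial genes had lower values in the knockdown, except for the iron importer. Slc25a37 (chromosome 14, 69859907 to 69903160, mm9) was at 4.57 FPKM in knockdown cells and 10.2 FPKM in the maturing control, against 3.54 FPKM in the proliferating control. The maturing control stood apart from both proliferating libraries. In the authors' deposited table Slc25a37 rose with maturation, with a log2 ratio of 1.52 (SE 0.46) and a q of 0.0154. In that comparison 99.8% of measured genes had a lower ratio of FPKM + 1. The knockdown log2 ratio in the authors' deposited table was 0.37 (SE 0.48), with an interval of -0.58 to 1.32 and a q of 0.999981.

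Abcb10, a transporter of the inner mitochondrial membrane that binds and stabilises mitoferrin 1, lies on chromosome 8 from 126476358 to 126507022 (mm9). It was at 6.07 FPKM in knockdown cells and 25.8 FPKM in the maturing control, against 11.9 FPKM in the proliferating control. The knockdown library held 50.9%, and the maturing control 216%, of the proliferating control level. For the knockdown the authors' deposited table held a log2 ratio of -0.97 (SE 0.43) and a q of 0.225, and for maturation 1.11 (SE 0.40) and a q of 0.0721. Neither was a call, although both intervals left out 0. Abcb6, a related transporter of porphyrins, lies on chromosome 1 from 75168214 to 75176857 (mm9). Its levels were 6.78 FPKM in knockdown cells and 16.3 FPKM in the maturing control, against 10.5 FPKM in the proliferating control. It had the same order of libraries as Abcb10, with log2 ratios in the authors' deposited table of -0.63 (SE 0.45) for the knockdown and 0.63 (SE 0.43) for maturation, neither called.

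Slc25a38, the carrier that brings glycine into mitochondria for the first step of haem synthesis, lies on chromosome 9 from 120019516 to 120033437 (mm9). It was at 10.7 FPKM in knockdown cells and 20.8 FPKM in the maturing control, against 14.6 FPKM in the proliferating control. Ratios on the log2 scale in the authors' deposited table were -0.45 (SE 0.47) for the knockdown and 0.51 (SE 0.45) for maturation, with q-values of 0.999981 and 0.973. Glrx5 (chromosome 12, 106270898 to 106279120, mm9), a glutaredoxin that passes on iron-sulphur clusters in mitochondria, was the most abundant of the 9 genes in each library. Its levels were 51.7 FPKM in knockdown cells and 97.0 FPKM in the maturing control, against 74.3 FPKM in the proliferating control. The authors' deposited table gave it log2 ratios of -0.52 (SE 0.42) and 0.38 (SE 0.41), with q-values of 0.906 and 0.999981. For both genes the knockdown was lowest and the maturing control highest, and neither library's interval against the proliferating control left out 0.

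The order of levels among the genes, which FPKM allows because it is set per length, differed between libraries. In the knockdown the 3 most abundant were Glrx5, Tfrc and Slc25a38, with Steap3 in position 5. In the maturing control Steap3 was in position 3 and Abcb10 in position 4. In the proliferating control Steap3 was in position 3, Slc25a38 in position 4 and Abcb10 in position 5. The knockdown levels of Steap3, Abcb6 and Abcb10 lay between 6.07 and 7.03 FPKM, closer together than the error of any one of them, so their order there is not settled.

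**Figure D3:**
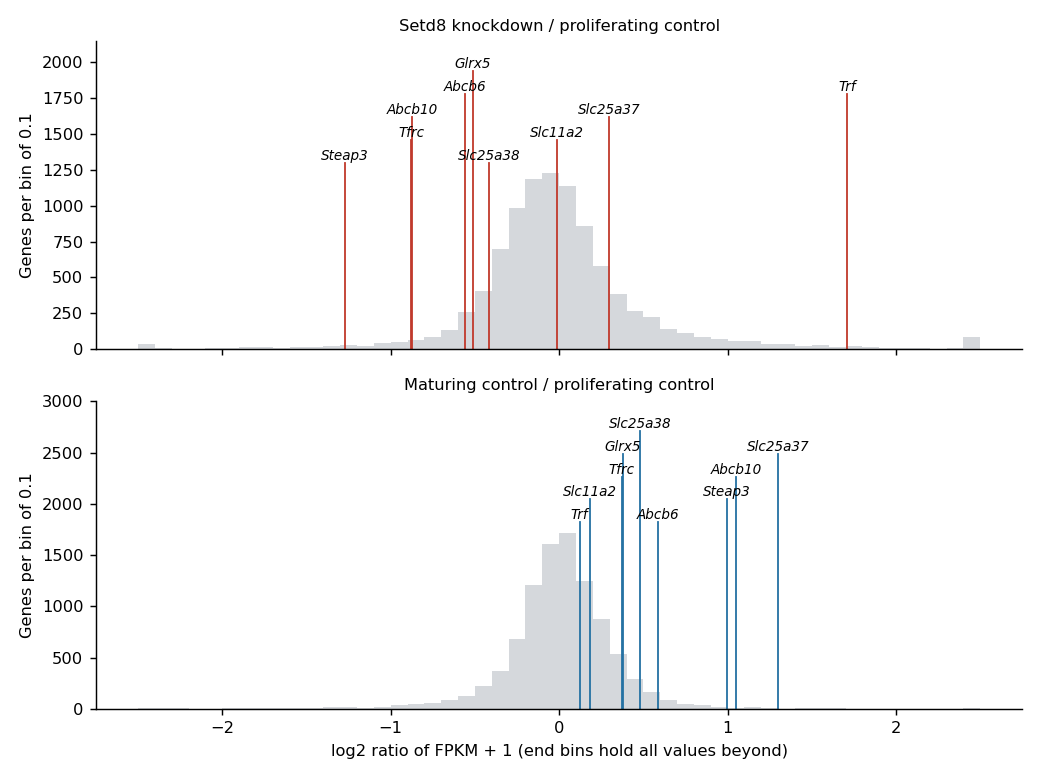
Log2 ratio of FPKM + 1 of each of the 9 genes (coloured lines, whose heights only separate the names) over the histogram of all 9611 measured genes (grey, number of genes per bin), for the Setd8 knockdown (top) and the maturing control (bottom) over the proliferating control. In the lower panel all 9 lines lie above 0, from 0.12 for Trf to 1.30 for Slc25a37.

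The authors also set the knockdown library against the maturing control, a pair that differs in both the hairpin and the medium. That comparison held a row for 6 of the 9 genes, and Steap3, Tfrc and Trf were not among them. Its 19067 rows, listed by symbol, end at Slc2a13, so symbols later in the alphabet are not covered by it or by its background. Abcb10 was lower in the knockdown by the authors' call, with a log2 ratio of -2.09 (SE 0.42) and a q of 2.62e-05 in their deposited table. It was the 1 gene called among the 6, against 4.38% called lower and 7.22% called higher of 9241 tested genes (11.6% in all). An unadjusted p under 0.05 was held on the lower side by 5 of the 6, all but Slc11a2, and by 7.39% of tested genes, with 11.2% on the higher side (18.6% in all). Abcb6 had a log2 ratio of -1.26 (SE 0.44) and a q of 0.0567 there, and Slc25a37 -1.15 (SE 0.45) and 0.115, in the authors' deposited table. On the FPKM + 1 scale, which covers all 9, Steap3, Abcb10, Tfrc, Abcb6 and Slc25a37 were over 2-fold lower in the knockdown and Trf over 2-fold higher, as were 3.51% and 5.71% of measured genes. Trf reached 1 FPKM only in the knockdown library, so its place in that count is no support by itself. By FPKM alone, Steap3 was 5.36 times and Tfrc 2.45 times as high in the maturing control as in the knockdown.

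A list of 58 other genes of iron handling, in 6 role groups, was matched in full to rows of the table, 4 of them under an older symbol, and 39 were measured. In the knockdown 28 of the 39 had a lower value and 11 a higher one, and the median log2 ratio on the FPKM + 1 scale was -0.14. Of all measured genes 55.6% had a lower value there, with a median of -0.05. The authors' deposited table called 1 lower and 1 higher of 38 tested, against 3.24% and 5.81% of all tested genes. In the maturing control 29 had a higher value and 10 a lower one, with a median of 0.15. Of all measured genes 52.6% had a higher value there, with a median of 0.01. The authors' deposited table had 1 of the 39 higher by its call, where 0.584% of all tested genes were. Slc46a1, the gene called higher in the knockdown, reached 1 FPKM only in that library. Fam132b, called lower in the knockdown and higher in the maturing control, reached it only in the maturing control. These counts are therefore no support by themselves. The difference between this list and the 9 genes was not tested.

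Both calls of the knockdown were of low genes. Slc46a1, a transporter of folate and haem, was at 1.78 FPKM in knockdown cells and 0.533 FPKM in the maturing control, against 0.389 FPKM in the proliferating control. It rose in the knockdown by the authors' deposited table, at a log2 ratio of 2.19 (SE 0.55) and a q of 0.00151. Fam132b encodes erythroferrone, the hormone by which red cell precursors lower hepcidin and so release iron into plasma. It was at 0.209 FPKM in knockdown cells and 4.11 FPKM in the maturing control, against 0.627 FPKM in the proliferating control. Fam132b fell in the knockdown (log2 ratio -1.58, q 0.0466) and rose with maturation (log2 ratio 2.71, q 9.33e-06) in the authors' deposited table. It was the 1 measured gene of the 6 in its group, and the hepcidin genes Hamp and Hamp2 were listed at 0 in all libraries.

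Storage and its control made up the most abundant group. Ftl1, the ferritin light chain, was at 1226 FPKM in knockdown cells and 2929.9 FPKM in the maturing control, against 1619 FPKM in the proliferating control. Its maturation log2 ratio in the authors' deposited table was 0.86 (SE 0.35) with a q of 0.160. Ferritin genes have near-identical copies elsewhere in the genome, so their levels are uncertain. Aco1, which without its iron-sulphur cluster becomes iron regulatory protein 1 and binds elements like those of Tfrc, was at 6.30 FPKM in knockdown cells and 10.8 FPKM in the maturing control, against 14.3 FPKM in the proliferating control. Its knockdown log2 ratio in the authors' deposited table was -1.18 (SE 0.42) with a q of 0.0660, just short of a call. No gene among the 8 measured in this group was called.

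In mitochondria, all 20 listed genes of iron and iron-sulphur cluster handling were measured and none was called in either comparison. Their medians were -0.16 in the knockdown and 0.16 in the maturing control, against -0.05 and 0.01 over all measured genes. Tmem14c, which helps move porphyrin precursors into mitochondria, was the most abundant and had the lowest knockdown ratio of the group. It was at 38.4 FPKM in knockdown cells and 100.4 FPKM in the maturing control, against 76.1 FPKM in the proliferating control. The authors' deposited table gave a knockdown log2 ratio of -0.99 (SE 0.42) and a q of 0.192. Among other importers, Slc39a8 was at 8.06 FPKM in knockdown cells and 26.1 FPKM in the maturing control, against 15.9995 FPKM in the proliferating control, and was not called. Of the exporters, the ferroportin gene Slc40a1 was at 7.27 FPKM in knockdown cells and 14.2 FPKM in the maturing control, against 9.66 FPKM in the proliferating control, again with no call. Snx3, which returns the transferrin receptor to the cell surface, was at 55.8 FPKM in knockdown cells and 76.1 FPKM in the maturing control, against 59.0 FPKM in the proliferating control. The 5 measured genes of that receptor cycle had medians of -0.08 and 0.02, with no call.

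**Figure D4:**
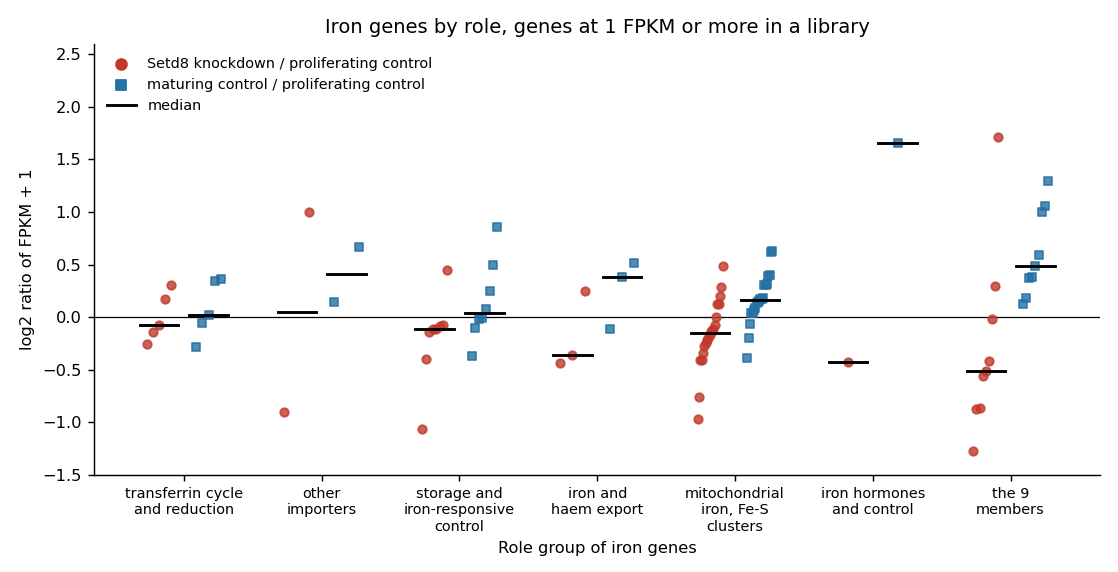
Log2 ratio of FPKM + 1 for measured iron genes by role, with the 9 uptake and mitochondrial transport genes at the right, for the Setd8 knockdown (red circles) and the maturing control (blue squares) over the proliferating control. Black lines are medians, which for the 9 genes lie at -0.51 and 0.48.

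The genes whose pair of ratios lay closest to that of Tfrc were named by Euclidean distance over the 2 log2 ratios of FPKM + 1, among 4161 protein-coding genes with at least 5 FPKM in every library. The nearest was Fech, the enzyme that inserts iron into a porphyrin to make haem, at a distance of 0.03. Next came St3gal4, a sialyltransferase, at 0.08, and Tmem14c at 0.09. Fech was at 19.3 FPKM in knockdown cells and 48.7 FPKM in the maturing control, against 36.7 FPKM in the proliferating control. For Slc25a37 the nearest were Prnp, the prion protein gene, at a distance of 0.24, Cpt1a, an enzyme of fatty acid entry into mitochondria, at 0.25, and Prr13 at 0.33. With only 3 libraries behind each pair, such distances describe these libraries alone.

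Erythroid markers were mixed, and most mast cell markers were higher in the knockdown. Of 8 erythroid markers 5 had a lower value in the knockdown, where 55.6% of all measured genes did, with Alas2 lower by the call of the authors' deposited table, and their summed level was 277.8 FPKM in the knockdown, 311 FPKM in the maturing control and 266 FPKM in the proliferating control. None of the 8 was at 0 in any library. The 3 with a higher value in the knockdown were Rhag, Gata1 and Tal1, none of them called. Rhag was at 119 FPKM in knockdown cells and 56.2 FPKM in the maturing control, against 77.9 FPKM in the proliferating control. Klf1 was at 34.1 FPKM in knockdown cells and 84.9 FPKM in the maturing control, against 60.1 FPKM in the proliferating control. Of 10 mast cell and basophil markers 9 were measured. In the knockdown the authors' deposited table called 7 of them higher and 1, Gzmb, lower, where 5.81% and 3.24% of all tested genes were. Mcpt4, Tpsab1, Tpsb2 and Mitf, 4 of the 7, reached 1 FPKM only in the knockdown library, so the count is no support by itself. None of the 10 was at 0 in any library, and Cpa3 was the other measured marker with a higher value. The 5 macrophage markers summed to 1.26 FPKM in the knockdown, 1.48 FPKM in the maturing control and 1.19 FPKM in the proliferating control, mostly from Cd68 and Csf1r, with Lyz2 listed at 0 throughout. None of the 6 stromal and endothelial markers reached 1 FPKM, and their sum was at most 0.0276 FPKM. The part of these markers in the values of the iron genes was not tested, and in such bulk samples fewer cells of a type and less RNA per cell cannot be told apart.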

How the data were processed

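RNA was taken from cultured mouse erythroblasts, per the labels' protocols. FPKM values per library were made by the authors, with Cufflinks 2.0.2, Cuffdiff and mm9, per the submitters' processing notes. Aligner and annotation: not given in the sources used here. In all, the deposited table holds 65535 rows in 3 comparisons, of 23234, 23234 and 19067 genes. Its log2 ratio and test statistic were read as scores of the authors, since ratios against 0 are written as an extreme number. The deposited p-value and q-value are the authors', and they called genes at a q of at most 0.05. The knockdown sample was matched to its column name by the number in its title and by its target.

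The genes and lists were chosen with earlier results of these data known. Differences were computed as log2 ratios of FPKM + 1 without a test, since each group had 1 sample, and this scale understates the change of low genes. The SE is the deposited log2 ratio over its statistic. Named genes are the 10 given by symbol and, of the other iron genes, those called and, in each role group, the one highest in mean level and the one with the largest ratio in size. Older symbols were matched through RefSeq names. No other gene's locus overlaps one of the 9. Alternatives were pseudocounts of 0.1 and 5, 4 other scalings, filters at 5 FPKM or none, the mean, a q under 0.01 and a size of 1 on the log2 scale. Ratio and depth steps were tested on simulated data. Sequences came from RefSeq (GRCm38.p6) and GENCODE, and a planned comparison of protein sequences was not made. Python 3.11.15, numpy 2.4.6 and pandas 2.3.3 were used.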

Additional observations from a re-analysis of the deposited data

How the results depend on the processing

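No paired analysis was possible because each group had 1 sample. At a q under 0.01, 0 of the 9 genes were called lower in the knockdown, 0 were called higher in the maturing control and 0 other iron genes were called lower in the knockdown. By size alone (2-fold on the FPKM + 1 scale), 0 other iron genes were higher in the knockdown, and 2 of the 9 genes, Slc25a37 and Abcb10, were higher in the maturing control. The median of the 9 genes ranged from -0.54 to -0.28 in the knockdown and from 0.40 to 0.63 in the maturing control, and that of the other iron genes from -0.15 to -0.02 and from 0.03 to 0.21. Of 108 values of single genes under another pseudocount or scaling, 4 moved by more than their SE and the 4 with the other sign were all of Slc11a2 in the knockdown. Trf in the knockdown ranged from 0.55 with a pseudocount of 5 to 4.19 with one of 0.1. The causes were not tested. FPKM values without replicates or counts give no counting error, which matters most for Trf.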

Other observations

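The order of related genes by level differed between libraries. The mitochondrial iron importer Slc25a37 stood at 0.900 times the FPKM of its relative Slc25a28 (mitoferrin 2), which most tissues use, in the knockdown and at 1.73 times in the maturing control, against 0.623 times in the proliferating control. Slc25a28 itself was at 5.08 FPKM in knockdown cells and 5.87 FPKM in the maturing control, against 5.69 FPKM in the proliferating control. Aco1 stood at 0.929 times the FPKM of Ireb2, the gene of iron regulatory protein 2, in the knockdown and at 1.46 times in the maturing control, against 1.93 times in the proliferating control. Ireb2 was between 6.78 and 7.42 FPKM in the 3 libraries. These genes were picked for comparison after their values were seen, and the ratios have no test.

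Other genes of iron and haem with a match to the iron-responsive element letters in a transcript were Fth1, Ftl1, Slc40a1, Bola3 and Alas2, with 1 match each. In Fth1, Ftl1, Slc40a1 and Alas2 the element is known to lie in the 5′ untranslated region, where iron regulatory proteins block translation, so a message level does not report on it. Alas2 was at 0.09004 FPKM in knockdown cells and 4.41 FPKM in the maturing control, against 4.55 FPKM in the proliferating control, while Fth1 was at 497 FPKM in knockdown cells and 746 FPKM in the maturing control, against 530 FPKM in the proliferating control.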
